A study of Drosophila melanogaster with 5 samples.

Results

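Messenger RNAs of 10 RNA-binding proteins known in neurons were followed in sorted cholinergic neurons of Drosophila melanogaster: elav, fne, Rbp9, Fmr1, orb2, pum, nos, bru3, mub and qkr58E-3. They were chosen by name, as the ELAV family and other neuronal RNA-binding proteins, with earlier results of these data known. They were matched to the probe sets that the array's annotation gives a single gene symbol. Of the 10, 8 genes were named by 9 probe sets, out of 10844 genes and 13966 probe sets tested. The annotation used here names no such probe set for bru3 or nos, and these were not analysed here.

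The series holds 5 arrays. Embryo culture has 4 arrays (replicates a, b, c and d) of neurons sorted from cultured embryonic cells, and larval brain has 1 array (replicate a) of neurons sorted from dissociated brain. In both groups the cells were sorted for green fluorescent protein, made from a UAS-GFP transgene under Gal4 that is driven by a 7.4 kb fragment of Cha, the choline acetyltransferase gene now named ChAT. The sorted cells are thus those in which this fragment was active, which need not be every cholinergic neuron or only these. The labels give no strain, embryo age, larval stage or time in culture, no array holds cells from outside the sort, and they do not say if a to d are separate cultures, so p-values measure a spread that may be technical.

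RNA-binding proteins decide how a messenger RNA is spliced, where it is carried, how long it lasts and when it is translated. ELAV family proteins act in neuronal nuclei and cytoplasm on the processing and stability of transcripts, and elav is the standard marker gene of fly neurons. Fmr1, the fly counterpart of the human fragile X gene, and Pumilio, Orb2 and Bruno proteins regulate translation, in neurons often near synapses, where Fmr1, orb2 and pum have known roles in synaptic growth and long-term memory.

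Values are deposited signal intensities per probe set, on a scale shared by all arrays. Background on an array is the brightest of 23 controls that target sequences of bacteria, yeast or mouse, which came to 148, 200, 119 and 271 for a, b, c and d in embryo culture and to 82.6 for larval brain. Probe sets differ in how strongly they respond, so each gene is compared with itself across arrays and not with another gene. Differences are larval brain minus embryo culture on the scale log2(intensity + 47.4), with their standard error (SE), from limma with Benjamini-Hochberg adjustment over all 13966 probe sets and a threshold of 0.05. With 1 larval brain array, the spread came from embryo culture, and larval brain is taken to vary as much.

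Marker genes checked the labels before the members were read. ChAT was above background on all 5 arrays, at 1457, 2573, 2846 and 2927 in embryo culture (a to d) and 2255 in larval brain. Over 8 measured neuron markers the summed signal was 3153 to 5795 on the embryo culture arrays and 9638 in larval brain, and cac was above background on no array. Much of the larval brain sum was nerfin-1, a gene of early neurons, at 3658, and without it the sums were 2778 to 5495 and 5980. In larval brain nSyb, brp, futsch and nerfin-1 lay above every embryo culture array, Syn and cac below, and ChAT and Appl inside the range. Markers of other cells gave signal too, in sums that include values under background. Those of gut (5 genes: Jon65Aiv, Mal-A1, hoka, mesh and Tsp2A) summed to 13169 to 22746 in embryo culture and 1248 in larval brain. No sum is given for epidermis. Those of muscle (5 genes) summed to 659 to 5495 and 438, and those of blood cells (7 genes) to 1133 to 3844 and 904. Glial markers (9 genes) summed to 3835 to 6460 and 4113, and germline markers (10 genes) to 2922 to 3491 and 2645. The germline sum in larval brain was mostly tud (1208) and gcl (706), while vas, piwi, bam, zpg and osk were under background there. Fat body markers (4 genes) summed to 1263 to 1740 and 520.4, and neuroblast markers (7 genes) to 1559 to 2172 and 7229. The neuroblast sum in larval brain was mostly pros (3835) and mira (1911), without which the other 5 genes summed to 936 to 1466 and 1483. Of these, dpn, ase, insc and grh lay inside the embryo culture range. The fifth, wor, lay above it, at 683 against 156 to 428. On the arrays, fewer cells of a type and less RNA per cell cannot be told apart, and the part that these other cells have in the results on RNA-binding proteins was not tested. The embryo culture arrays also differed in the 3′ to middle signal ratio of control messenger RNAs, which grows as RNA loses its 5′ side. The mean log2 ratio over eIF-4a, GAPDH and actin was 2.45 on a, 2.35 on b, 1.495 on c and 1.66 on d, against 1.15 in larval brain, so results are also given with a and b alone, or c and d alone, as the embryo culture group.

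Among the 8 measured genes, Fmr1 alone passed the test, and it was higher in larval brain. The background for this count is 0.821% of all genes called higher and 2.81% called lower, with 3.63% called in all. The larval brain value lay above every embryo culture array for 4 of the 8, elav, fne, Fmr1 and mub, where this held for 26.2% of all genes, and below every one for 0 of the 8, against 29.6%. At an unadjusted p under 0.05, 3 of the 8 passed (elav, Fmr1 and mub), all higher in larval brain, against 17.3% of all genes and 8.47% for higher ones. The median log2 difference of the 8 genes was 0.46, against -0.07 for all genes.

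**Figure D1:**
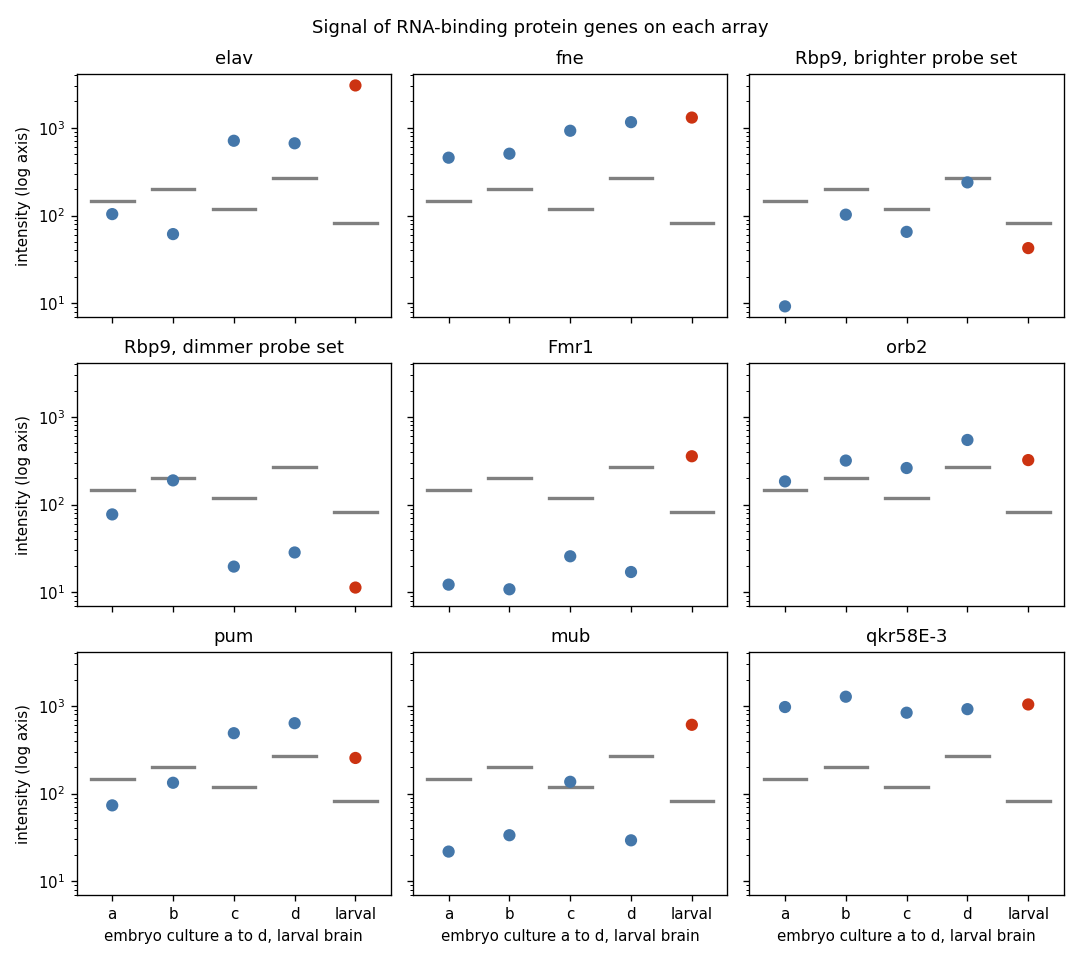
Intensity (log axis) of the 9 probe sets of 8 genes in embryo culture (a to d) (blue) and the larval brain array (red), with grey bars at each array's background. Fmr1 lies under background on all 4 embryo culture arrays and at 356 in larval brain, elav is under background on a and b, and both Rbp9 probe sets are under background on all 5 arrays.

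The ELAV family comprises elav, fne and Rbp9, related proteins with RNA recognition motifs. The elav signal in embryo culture was 104 on a, 61.4 on b, 713 on c and 667 on d, and in larval brain it was 3047. It was at or under background on a and b and well over it on c, d and the larval brain array, which stood 4.28-fold above the highest embryo culture array. On a and b, where this standard neuron marker was not above background, ChAT was at 1457 and 2573. The groups did not overlap, and the log2 difference was 3.33 ± 1.05 (SE; limma adjusted p = 0.147), a fold of 10.1 with a 95% interval from 1.95 to 52.1, which did not pass the threshold.

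The spread among the embryo culture arrays was the widest of the 8 genes for elav. Its SD on the log2 scale was 1.47 (n = 4), a value reached by 0.848% of all genes, and c and d were at least 4.01-fold above a and b, taking background as the level of the latter. Against a and b alone the log2 difference was 4.59 ± 0.45 (adjusted p = 0.0059), and against c and d alone it was 2.07 ± 0.49 (adjusted p = 0.00107), fits that called 12.4% and 5.7% of all probe sets. The split follows the gap in the elav values themselves, so little spread is left within each pair. The small p-values of these fits are therefore no support beyond the fit of all arrays, which did not pass. With the 3′ to middle index as a covariate the log2 difference was 0.84 ± 0.66 (adjusted p = 0.658). Arrays a and b were lowest in elav and highest in the index, and larval brain was highest in elav and lowest in the index, so group and index cannot be told apart.

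The ELAV family gene fne, named as found in neurons, was above background on all 5 arrays, with 457, 507, 927 and 1162 in embryo culture (a to d) and 1311 in larval brain. The larval brain value lay above the embryo culture range, by 1.13-fold over array d. The log2 difference was 0.84 ± 0.55 (adjusted p = 0.521), a fold of 1.79 with a 95% interval from 0.754 to 4.26, so a difference of this size was not detectable with these arrays. As for elav, c and d lay above a and b, here by 2.17-fold in the means, and the log2 difference was 1.36 ± 0.29 (adjusted p = 0.044) against a and b, 0.32 ± 0.49 (adjusted p = 0.883) against c and d and -0.17 ± 0.49 (adjusted p = 0.931) with the index as a covariate.

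Rbp9, a family member that also acts in the female germline, was at or under background on every array by both of its probe sets. The brighter gave 9.2, 102, 65.1 and 239 in embryo culture (a to d) and 42.5 in larval brain, and the other 77.2, 189, 19.6 and 28.4 with 11.3 in larval brain. The probe sets placed the embryo culture arrays in different orders, d highest by the former and b by the latter. No direction is read for Rbp9, and its fitted difference enters only the counts and medians over the 8 genes and the plot by gene list.

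Fmr1 carries KH domains and represses the translation of bound messenger RNAs. Its signal was 12.2, 10.8, 25.7 and 17.0 in embryo culture (a to d), under background on each, and 356 in larval brain, which is above the background of that array and above those of all embryo culture arrays. The embryo culture mean was 16.4 ± 6.73 (SD, n = 4). Larval brain was at least 2.02-fold higher, taking background as the embryo culture level, and 13.8 times the highest embryo culture value as measured.

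The log2 difference of Fmr1 was 2.66 ± 0.40 (SE; limma adjusted p = 0.00721), which on that scale is 6.34-fold with a 95% interval from 3.42 to 11.8. This SE, interval and p-value rest on embryo culture readings that were all under background, with a spread that the added 47.4 makes small. The interval does not reach down to the 2.02-fold found with background as the embryo culture level. Fmr1 was called whichever embryo culture array was left out (adjusted p from 0.0243 to 0.0298). The size depends on the value added before taking logs, since the embryo culture signal is dim: it was 3.58 with 15 added and 1.64 with 144 added. The call ended against arrays c and d alone (2.55 ± 0.87, adjusted p = 0.057) and with the 3′ to middle index as a covariate (2.43 ± 0.58, adjusted p = 0.0621), with the difference nearly as large and the SE larger. Unlike elav, Fmr1 varied little among the embryo culture arrays, with an SD of 0.15 on the log2 scale, below that of 95.04% of all genes, a measure that the added 47.4 makes small for any gene this dim.

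The gene orb2 encodes a cytoplasmic polyadenylation element binding protein with a role in long-term memory. Its signal was 184, 318, 261 and 546 in embryo culture (a to d), above background on each, and 322 in larval brain, inside the embryo culture range. The log2 difference was 0.07 ± 0.65 (adjusted p = 0.9749), and the 95% interval of the fold, from 0.381 to 2.87, does not show that the groups were alike. A further probe set that the annotation assigns to both orb2 and CG43783 was not counted as a member, and read 114, 140, 162 and 140 on a to d and 105 in larval brain.

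The translational repressor gene pum, whose protein binds messenger RNAs through Pumilio repeats, stood at 73.4 and 133 on embryo culture arrays a and b, under background, and at 489 and 636 on c and d. Larval brain, at 255, lay between these pairs and above its own background. The log2 difference over all arrays was 0.02 ± 0.96 (adjusted p = 0.996; 95% interval of the fold from 0.224 to 4.56). Against a and b alone the larval brain value was higher by 1.03 on the log2 scale and against c and d alone lower, at -1.0005 ± 0.70 (adjusted p = 0.595), so that the direction depends on which arrays are used. Arrays c and d were at least 3.24-fold above a and b, taking background as the level of the latter, and 2.41% of all genes had an embryo culture SD as large as that of pum, 1.21 on the log2 scale.

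Of the KH domain genes, mub encodes a poly(C)-binding protein with a role in alternative splicing. Its signal was 21.8, 33.5, 136 and 29.3 in embryo culture (a to d) and 609 in larval brain. Only array c was above its background in embryo culture, and larval brain was 4.47 times that array. The log2 difference was 2.80 ± 0.70 (adjusted p = 0.0703), a fold of 6.97 with a 95% interval from 2.34 to 20.7, just short of the threshold. Without array c it was 3.12 ± 0.58 and passed (adjusted p = 0.0396), while without a, b or d it did not (adjusted p from 0.130 to 0.161). It also passed against a and b alone (3.13, adjusted p = 0.0252) but not against c and d (2.47, adjusted p = 0.180), and with the index as a covariate it was 1.995 ± 0.90 (adjusted p = 0.350).

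The other KH domain gene, qkr58E-3, is a relative of the quaking genes of vertebrates. It was the steadiest of the genes above background on all arrays, with 972, 1274, 837 and 919 in embryo culture (a to d) and 1040 in larval brain. The larval brain value fell inside a range of 1.52-fold. The log2 difference was 0.07 ± 0.40 (adjusted p = 0.953), with a 95% interval of the fold from 0.558 to 1.97. It was also the only 1 of the 8 genes lower on c and d than on a and b, which held for 22.2% of all genes.

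**Figure D2:**
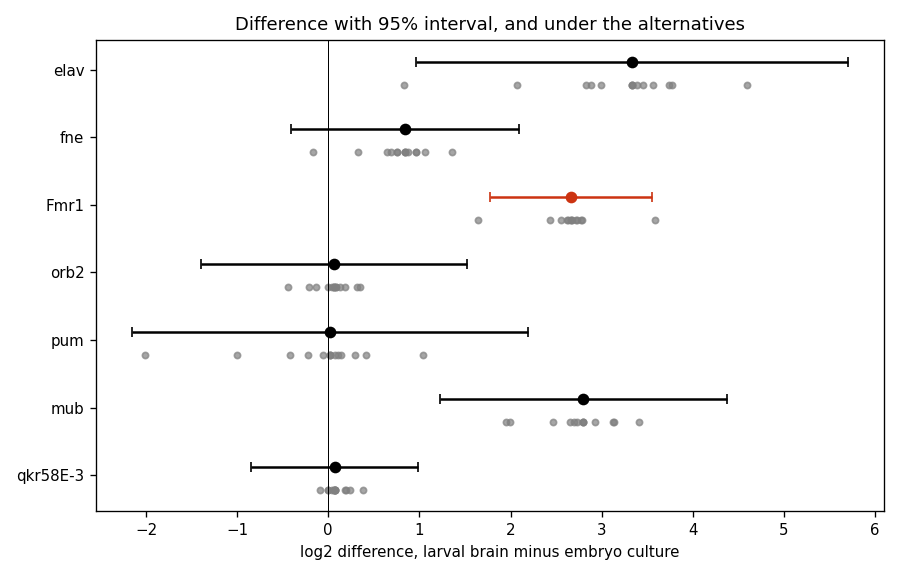
Log2 difference, larval brain minus embryo culture, of the 7 genes above background on any array, with its 95% interval (points with bars; red for the gene with an adjusted p under 0.05) and under each alternative processing (grey points). The intervals of elav, Fmr1 and mub lie above 0, and the grey points of fne, orb2, pum and qkr58E-3 fall on both sides of 0.

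Within embryo culture, c and d lay above a and b for 4 of the 8 genes: elav, fne, pum and, all under background, Fmr1. This order held for 22.7% of all genes, and the opposite order for 22.2%. Over the same arrays 4 of 8 neuron markers and 4 of 9 glial markers were also higher on c and d, with 1 of each lower. Of 7 blood cell markers 6 were lower and 0 higher, and of 7 neuroblast markers 0 were higher and 0 lower. Higher and lower were 1 and 2 of 10 germline, 0 and 1 of 5 muscle, 1 and 2 of 4 fat body and 1 and 2 of 5 gut markers. The median log2 difference between c and d and a and b was 0.81 for the 8 genes and 0.04 for all genes. How far the 3′ to middle index or the other cell types set this pattern was not tested.

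The genes whose values over the 5 arrays were nearest to those of elav were stai, Hsp26, Hsp27 and CG42336. They were the nearest of 6152 genes with a mean signal above 225, by the root mean square difference of log2 values after each gene's own mean was subtracted, which was 0.30 for stai and 0.34 for CG42336. The stathmin gene stai, which acts on microtubules in neurons, stood at 223, 182, 946 and 1242 on a to d and 3763 in larval brain. The small heat shock gene Hsp26 stood at 1545, 1491, 7133 and 9725 and at 24627. These genes were picked for their likeness on the same 5 arrays, so the order that they share with elav, a and b low, c and d higher and larval brain highest, is a description and was not tested.

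**Figure D3:**
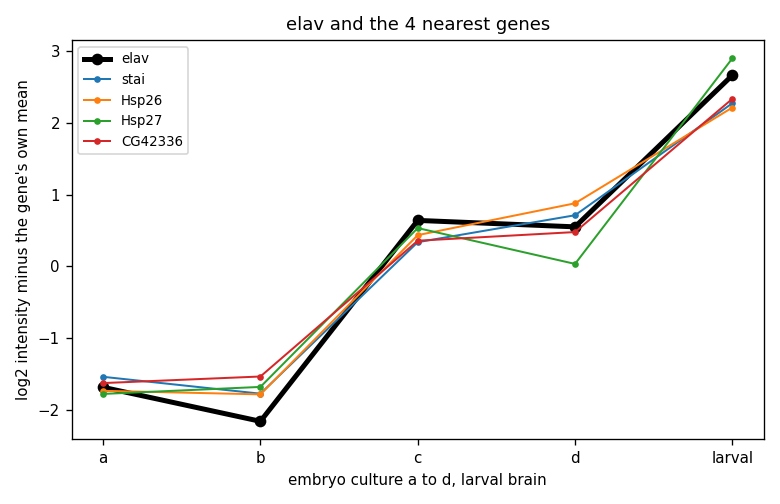
Log2 intensity minus each gene's own mean over the 5 arrays, for elav in black and the 4 genes chosen as nearest to it in colour; lines only join the points of a gene. All 5 genes step up from a and b to c and d and again to larval brain, as the choice of the 4 requires.

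Other genes of RNA regulation were read from 6 lists, 61 measured genes in all without the members. Larval brain was higher in 54 of the 61, or 88.5%, against 46.3% of all genes, and lay above every embryo culture array for 38, or 62.3%, against 26.2%. The median log2 difference was 0.96. Of the 61, only para was above background on no array, while 48.6% to 68.0% of all probe sets were above it on a given array. The shares over all genes are thus not matched for signal strength. The lists were not refitted with the 3′ to middle index or with fewer arrays. Past the threshold were 2 genes, both higher in larval brain (3.28%, against 0.821% of all genes), and 21 passed at an unadjusted p under 0.05, all higher in larval brain (34.4%, against 8.47% of all genes).

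Both were hnRNP genes, whose proteins coat nuclear RNA and act in splicing. Hrb98DE was at 1434, 1384, 1244 and 756 in embryo culture (a to d) and 9153 in larval brain, 6.38 times the highest of them. Its log2 difference was 2.92 ± 0.44 (adjusted p = 0.00738). Syp, a known regulator of neuroblast timing, was under background on each embryo culture array (47.6, 118, 21.0 and 57.1) and at 5996 in larval brain, at least 34.1-fold higher. In the list of 13 hnRNP and splicing genes 12 had positive differences, with a median of 1.22.

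Among 9 paralogs and relatives of the members, 7 had positive differences (median 0.56) and 0 passed the test. HnRNP-K, a KH domain gene, read 3451, 3229, 3243 and 4289 on a to d and 9961 in larval brain, outside the embryo culture range (log2 difference 1.48 ± 0.38, adjusted p = 0.0754). The Sex-lethal relative ssx read 1123, 952, 650 and 1015 and 1219 (0.39 ± 0.43, adjusted p = 0.714). Neither difference passed, and that of ssx was smaller than its SE.

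Of 16 genes of messenger RNA transport and translational control, 15 had positive differences (median 1.09) and 0 passed. The cap-binding factor gene eIF4E1 read 3068, 2793, 3859 and 2987 on a to d and 6139 in larval brain (0.95 ± 0.37, adjusted p = 0.250). The poly(A)-binding protein gene pAbp read 3057, 4322, 34845 and 28547 on a to d and 17686 in larval brain (0.72 ± 1.24, adjusted p = 0.826). Its c and d values were 8.59 times those of a and b, the same order as elav and pum.

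Of 7 genes whose products are partners of Fmr1 protein, 6 had positive differences (median 1.27) and 0 passed. The RNA helicase gene Rm62 read 2750, 3731, 3071 and 1400 on a to d and 11345 in larval brain (2.12 ± 0.52, adjusted p = 0.0683). The silencing factor gene gw read 5935, 6321, 4383 and 4897 and 5398 (0.02 ± 0.40, adjusted p = 0.988). Rm62 was thus outside the embryo culture range and gw inside it.

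In the list of partners of pum and nos in repression, 5 of 6 genes had positive differences (median 1.0015) and 0 passed; it includes not, a ubiquitin protease gene outside the deadenylase complex. The tumour suppressor gene brat, whose protein acts with Pumilio, read 915, 1069, 3340 and 2664 on a to d and 6722 in larval brain (1.93 ± 0.68, adjusted p = 0.193). The deadenylase gene Pop2 read 1349, 1333, 2243 and 1286 and 2232 (0.55 ± 0.42, adjusted p = 0.588). Again brat stood lower on a and b than on c and d, with larval brain highest.

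Of 11 genes listed as reported messenger RNA targets of ELAV proteins, Fmr1 or pum, 10 had positive differences (median 0.84) and 0 passed. The adhesion gene Nrg, an ELAV splicing target, read 376, 415, 2729 and 2180 on a to d and 2071 in larval brain (1.01 ± 0.995, adjusted p = 0.683), while the profilin gene chic, a target of Fmr1, read 15639, 16091, 17302 and 16418 and 17816 (0.12 ± 0.47, adjusted p = 0.927). Probe set signals do not separate splice forms, so these values say nothing of splicing.

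**Figure D4:**
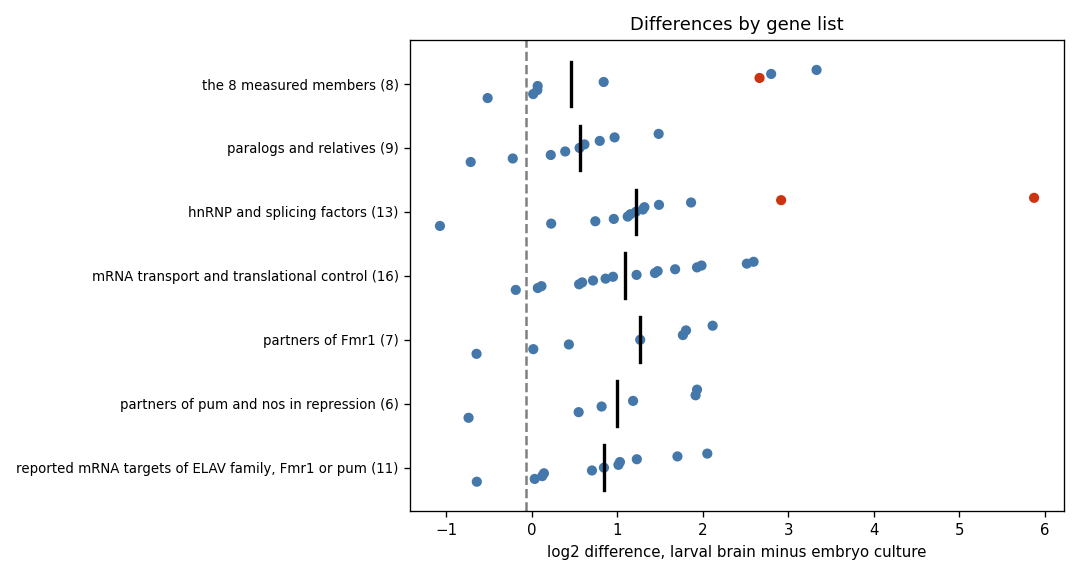
Log2 difference, larval brain minus embryo culture, of each measured gene in the members and the 6 related lists (number of genes in brackets); red points have an adjusted p under 0.05, black bars are list medians and the dashed line is the median of all genes, -0.07. The medians lie between 0.46 for the members and 1.27 for partners of Fmr1, and the red points are Fmr1, Hrb98DE and Syp.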

How the data were processed

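RNA of 5 samples was measured on 1-colour short oligonucleotide arrays. The authors deposited 1 linear intensity per probe set and array; the values show that the deposited arrays were scaled to a common mean, 500.06 to 500.08 after trimming 2% at each end. Which software and background correction were applied is not given in the sources used here. The table holds signals without detection calls. The number of arrays limits precision, with a median SE of 0.58 and no call at a log2 difference under 1.35.

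Of 14010 probe sets, 44 controls were left out. The annotation gives 12443 of the others 1 gene symbol, 327 several and 1196 none; symbols were checked through Entrez identifiers against RefSeq Release 6 for 12394, and 0 changed. No coordinates are given, since the array's build is not stated. A gene with several probe sets takes the brightest by the mean of both group means (10844 genes). Intensities were put on log2 after adding 47.4, their 20th percentile, with no filter, and fitted in limma 3.58.1 under R 4.3.3 (lmFit, eBayes with trend, two-sided), with 3 residual degrees of freedom (9.11 after moderation). The fit was also run on simulated data with independent noise, which lacks the gap between a and b and c and d. No result is read from it. An exact permutation of 4 arrays against 1 cannot give a p under 0.2, so none is given. Plots used matplotlib 3.10.9.

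Members, lists and the background measure were chosen with earlier results of these data known. Named were all members, from each list the genes past the threshold or otherwise the 2 with the highest embryo culture mean, and the 4 genes nearest to elav, which is also the member with the largest difference. Alternatives changed the pseudocount, the normalization, the trend, a filter, a covariate and the arrays used.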

Additional observations from a re-analysis of the deposited data

Results flagged for a closer look

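The embryo culture values of mub held 1 array far from the others: array c, at 136, against 21.8, 33.5 and 29.3 on a, b and d. The gap from c to the next array was 0.898 of the whole range, above Dixon's critical value for 4 samples at 95%. At this level chance flags 5% of groups of normal values, and 9 probe sets were examined. The rate for linear intensities, as used here, was not measured. Array c was also the only embryo culture array on which mub was above background, and the difference without it is given with the gene.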

How the results depend on the processing

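Fmr1 and mub kept a positive difference under all 13 alternatives that gave them a value, and elav under all 14. The call of Fmr1 ended with arrays c and d only (2.55) and with the 3′ to middle index as a covariate (2.43). With a and b only, elav (4.59), fne (1.36) and mub (3.13) passed; with c and d only elav passed (2.07), and mub passed with the 40th percentile pseudocount (1.95) and without array c (2.65 to 3.12 when each array is left out in turn). The index as a covariate turned the sign of fne (-0.17), orb2 (-0.44) and pum (-2.02), arrays c and d only that of orb2 (-0.21) and pum (-1.0005), the 40th percentile pseudocount that of pum (-0.057), quantile normalization that of qkr58E-3 (-2.1e-05) and arrays a and b only that of qkr58E-3 (-0.094). Leaving out an array gave -0.14 to 0.32 for orb2, -0.42 to 0.41 for pum and -0.0064 to 0.19 for qkr58E-3. The number of members called, 1, became 2 with the 40th percentile pseudocount, 4 with a and b only and 0 with the covariate and with dim probe sets left out, which removed Fmr1, mub and Rbp9, and was 1 to 2 when an array was left out. The number of probe sets called, 455, became 303 without the variance trend, 1732 with a and b only and 796 with c and d only, and was 292 (without b) to 403 when an array was left out; it was not computed for means over a gene's probe sets. Fits with a and b only or c and d only leave the gap between these pairs out of the spread. Passing there therefore adds no support to the fit of all arrays. Apart from these constructions, the cause was not tested. No paired analysis was possible because the groups share only the replicate letter a. Signals near background limit Rbp9, Fmr1 and mub, and with 1 larval brain array no difference between brains can be seen.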

Other observations

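Some genes of the related lists had the elav order over the arrays, among them stau, Rbfox1, futsch and brat. Others, such as pAbp and Nrg, had c and d above a and b but larval brain inside the embryo culture range. How many of the 61 related genes, or of all genes, had the whole order was not counted. The genes given here were chosen after their values were seen. The Musashi family gene Rbp6 read 32.2, 65.6, 438 and 441 in embryo culture (a to d) and 1182 in larval brain, with a and b under background (log2 difference 2.52 ± 1.05, limma adjusted p = 0.282). The neuronal gene shep read 137, 104, 691 and 630 and 2031 (2.59 ± 0.90, adjusted p = 0.190), and Atx2, the ataxin-2 gene, 203, 336, 1031 and 1349 and 2395 (1.99 ± 0.85, adjusted p = 0.294). In each, c and d lay above a and b and larval brain above all, and none passed the test. Wherever larval brain lay, the order of c and d over a and b held for 25 of the 61 related genes. The opposite order held for 11, against 22.7% and 22.2% of all genes.

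Also chosen after its values were seen, the glial transcription factor gene gcm was under background on each embryo culture array (12.4, 89.5, 86.8 and 151) and at 674 in larval brain, at least 3.83-fold higher (adjusted p = 0.125), while repo, the standard glial marker, read 307, 291, 510 and 68.9 and 288. Of the 9 glial markers 3 had positive differences (median -0.38). In larval brain alrm, like gcm, lay above every embryo culture array (276 against 131 to 258), and moody, Gs2 and loco lay below every one.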
